A study of Mus musculus with 8 samples.

Results

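Serpins are protease inhibitors that act as suicide substrates. The target protease cleaves an exposed reactive centre loop, is trapped in a covalent complex, and inhibitor and enzyme are both used up. The clade B members (Serpinb genes) are mostly intracellular and protect a cell from its own granule proteases or from those of a neighbour, whereas Serping1 is secreted into plasma. Serpinb2 is a classical product of activated macrophages. The 7 genes described here are Serpinb1a, Serpinb2, Serpinb6a, Serpinb6b, Serpinb8, Serpinb9 and Serping1, out of 60 serpin genes and 37018 genes and transcripts on the array. They were picked by name with earlier results of these arrays known, and a gene with several probes was read from its brightest one over all arrays. The adjusted p-values given for them come from fits over all genes tested and are no independent evidence for genes picked in this way. All 7 passed the intensity filter.

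The RNA came from peritoneal macrophages of LysMCre-fur(fl/fl) mice (KO) and of WT littermates on a C57BL/6 background, left untreated or stimulated for 1, 4 or 24 h with LPS (1 μg/ml). LPS is a bacterial cell wall component that activates macrophages through Toll-like receptor 4. Floxed alleles of Furin, the gene of a proprotein convertase, are deleted by a Cre recombinase driven from the lysozyme M locus, that is, in myeloid cells. Each array had 62976 spots, of which 43.8% to 51.3% per channel were well above background and 0 saturated, and the number of arrays limits the precision. The peritoneal cells were plated without a sort described in the sources used here, and whether animals were pooled is not given. Each of the 8 two-colour arrays carried KO and WT RNA of 1 time point. KO RNA was labelled with Cy5 in replicate 1 and with Cy3 in replicate 2, so that replicate number and dye orientation cannot be told apart. With 2 replicates per group, the p-values measure only the spread between these samples. Where a term for the replicate (the replicate block) is fitted, a steady difference between replicates 1 and 2 is taken out of that spread. The p-values with the block thus do not measure how well the replicates agree.

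The level of Furin checks the labels. The ratio of KO to WT on the log2 scale was -0.59 and -0.85 in untreated cells, -0.56 and -0.55 at 1 h, and -0.59 and -0.69 at 24 h. At 4 h it was 0.00 and 0.33, so the RNA labelled KO did not have the lower Furin signal there. By Furin alone, directions at 4 h rest on the labels. Whether the Furin probe lies in the deleted part is not given in the sources used here. Lyz2, the locus that carries the Cre, was lower in the RNA labelled KO on all 8 arrays, with a mean log2 ratio of -1.16 ± 0.05 (SE, limma adjusted p = 0.000341). On the 2 arrays of 4 h its log2 ratios were -1.04 and -1.13. The 5 measured macrophage markers, Adgre1, Csf1r, Itgam, Mertk and Lyz2, were above background in all 16 channels. All 5 B cell markers, 4 of 5 T and NK cell markers and 4 of 5 mast cell markers were also above background in all 16 channels, whereas of the 5 measured neutrophil markers Camp was above background in all 16 channels, Ltf in 1, and Retnlg, Ngp and Mpo in none. In such a mixed population, fewer cells of a type and less RNA per cell cannot be told apart.

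Promoter sequences were at hand for 5 of the 7 genes (RefSeq, GRCm38.p6, 7 windows of 300 bases, from 250 bases before to 50 bases after a start site). Those of Serpinb2 and Serpinb8, the members that rose most with LPS, are shown first, without the 50 bases after the start. Capitals mark a match to the AP-1 motif TGANTCA, the site of the Fos and Jun family.

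Serpinb2, chr1:107511173-107511422, plus strand: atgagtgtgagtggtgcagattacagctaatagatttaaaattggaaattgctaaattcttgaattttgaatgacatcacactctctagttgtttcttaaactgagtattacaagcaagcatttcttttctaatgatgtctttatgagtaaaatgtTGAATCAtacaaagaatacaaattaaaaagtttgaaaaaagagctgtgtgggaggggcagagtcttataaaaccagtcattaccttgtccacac

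Serpinb8, chr1:107589756-107590005, plus strand: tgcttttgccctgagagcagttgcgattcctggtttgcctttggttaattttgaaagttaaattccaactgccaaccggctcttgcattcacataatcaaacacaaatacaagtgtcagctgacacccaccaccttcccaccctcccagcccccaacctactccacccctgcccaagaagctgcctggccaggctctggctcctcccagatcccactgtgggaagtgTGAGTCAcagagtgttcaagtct

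Serpinb2 has 2 overlapping windows, of which the first is shown. Both held the same AP-1 match, before both start sites, and the same match to the gamma-activated site, which lies after the first start site and before the second. The Serpinb8 window held 2 AP-1 matches, the other lying within the 50 bases after the start site. Of the 32851 promoter windows in the table, 7.81% held the AP-1 motif. The first of 2 Serpinb6a windows, a gene that fell with LPS, and the window of Serpinb9, which was called in no comparison, had a match to the interferon-stimulated response element (GAAA, any 2 bases, GAAA), in capitals below and found in 3.44% of windows. In this Serpinb6a window it overlaps a match to the gamma-activated site TTCNNNGAA (8.3% of windows), also in capitals, and another lies in the 50 bases after the start.

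Serpinb6a, chr13:34002795-34003044, minus strand: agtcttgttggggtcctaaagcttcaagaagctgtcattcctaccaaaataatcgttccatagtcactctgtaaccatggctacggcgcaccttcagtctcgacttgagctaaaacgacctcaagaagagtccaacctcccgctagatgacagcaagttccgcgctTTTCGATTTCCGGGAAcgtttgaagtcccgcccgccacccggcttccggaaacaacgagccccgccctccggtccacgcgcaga

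Serpinb9, chr13:33004291-33004540, plus strand: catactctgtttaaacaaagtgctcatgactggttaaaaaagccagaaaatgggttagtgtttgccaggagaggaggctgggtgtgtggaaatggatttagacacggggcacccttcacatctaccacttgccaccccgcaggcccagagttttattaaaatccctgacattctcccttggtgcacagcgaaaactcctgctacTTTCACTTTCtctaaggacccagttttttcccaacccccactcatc

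The second Serpinb6a window and the Serpinb6b window held none of the motifs searched. No window of a member held the CRE motif TGACGTCA (1.79% of windows) or the NF-kB motif (GGG, any 2 bases, TTTCC, in 1.63% of windows). Both strands were searched for each motif. Serpinb2, Serpinb10 and Serpinb8 neighbour each other on chromosome 1, and Serpinb1a, Serpinb6b, Serpinb9 and Serpinb6a lie in a cluster on chromosome 13 together with close copies of the Serpinb1, Serpinb6 and Serpinb9 type, for which cross-hybridisation cannot be told apart from expression. Serping1 lies on chromosome 2.

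**Figure D1:**
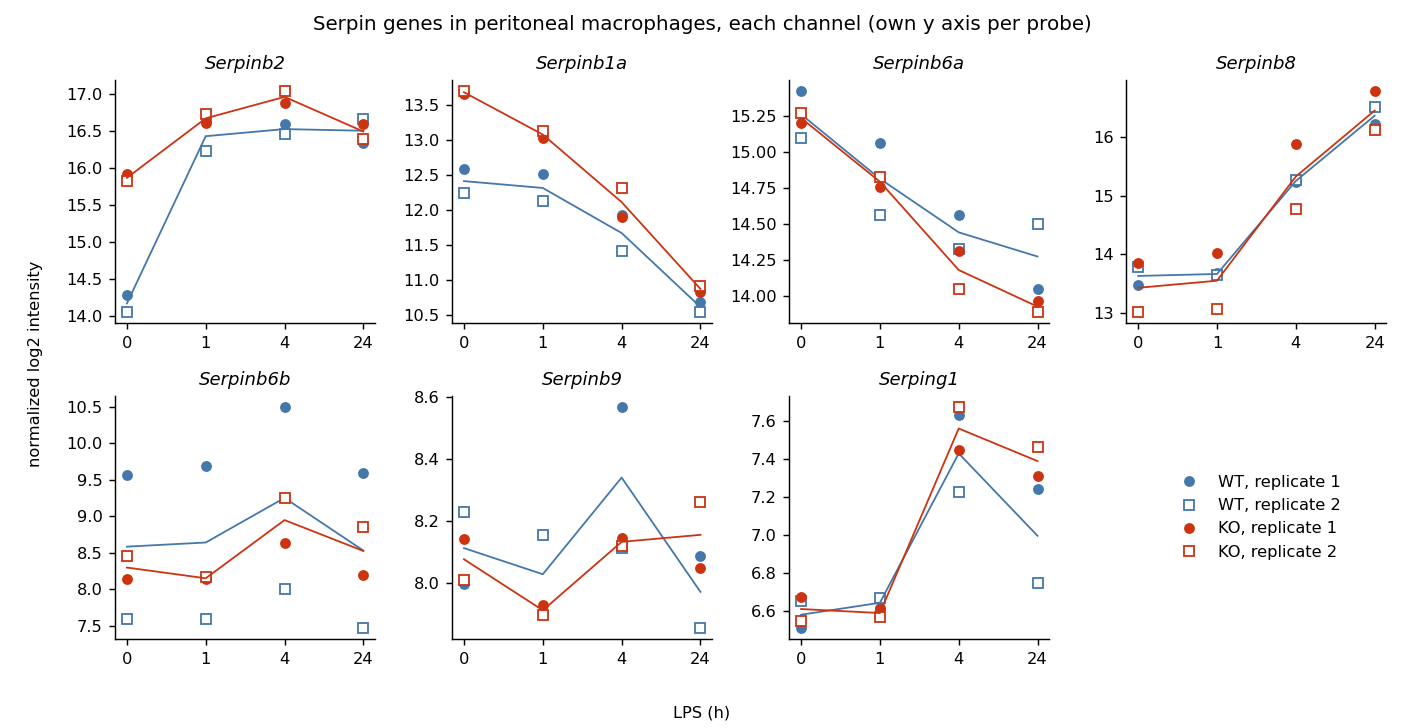
Normalized log2 intensity (y axis, separate for each probe) of the 7 serpin genes in each channel against hours of LPS (x axis, 0 for untreated), with WT in blue, KO in red, filled circles for replicate 1, open squares for replicate 2 and lines through the mean of both replicates. Serpinb2 of untreated KO cells lies at 15.92 and 15.82, above 14.29 and 14.06 in WT cells, and the Serpinb6b channels of WT replicate 1 lie apart from those of WT replicate 2.

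Serpinb2 encodes plasminogen activator inhibitor type 2, which inhibits the urokinase Plau and the tissue plasminogen activator Plat. Its normalized log2 intensity in untreated cells was 14.29 and 14.06 in WT replicates 1 and 2, and 15.92 and 15.82 in KO. At 1 h it was 16.63 and 16.23 in WT and 16.61 and 16.73 in KO. The high level of untreated KO cells thus lay between untreated and LPS-treated WT cells. At 4 h the values were 16.60 and 16.46 in WT and 16.88 and 17.04 in KO. At 24 h they were 16.34 and 16.67 in WT and 16.60 and 16.39 in KO. The genotypes did not overlap in untreated cells and at 4 h, and overlapped at 1 h and 24 h. No Serpinb2 spot was marked as saturated.

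In WT cells Serpinb2 was up 4.78-fold after 1 h of LPS, and the gain held at 4 h (5.11-fold) and 24 h (5.03-fold). The log2 changes were 2.26, 2.35 and 2.33 (SE 0.16, n = 2 per group, limma adjusted p = 4.51e-07, 3.37e-08 and 6.24e-08). In KO cells, which started higher, it rose by 0.80, 1.09 and 0.62 on the same scale (1.74-fold, 2.13-fold and 1.54-fold, limma adjusted p = 0.00513, 5.67e-05 and 0.00673). From 4 h to 24 h the change was -0.47 in KO (limma adjusted p = 0.0344) and -0.02 in WT (limma adjusted p = 0.95). The KO rise at 1 h was lost without untreated replicate 2 (limma adjusted p = 0.0501), and that at 24 h without untreated replicate 2 or 24 h replicate 1 (0.0538 and 0.0572). The KO fall after 4 h was lost without either 4 h array or without 24 h replicate 2 (limma adjusted p up to 0.189), and with loess only, where the change was -0.30 (limma adjusted p = 0.218).

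The test of KO against WT gave Serpinb2 a log2 ratio of 1.69 ± 0.16 (SE) in untreated cells, or 3.24-fold, seen as 1.62 and 1.76 on the 2 arrays. With limma its adjusted p was 0.0586, and 0.00146 with a term for the replicate block. After 1, 4 and 24 h of LPS the log2 ratios were 0.24, 0.43 and -0.01 (limma adjusted p = 1.00 each). The response to LPS was smaller in KO than in WT cells by 1.45, 1.26 and 1.70 on the log2 scale at 1, 4 and 24 h. These differences shared the untreated samples, and their limma adjusted p-values were 1.00, 0.815 and 0.247, the last 0.00927 with the replicate block. Of all genes and transcripts 0% were called for these differences (512, 1071 and 1231 at an unadjusted p under 0.05), and 0.211% for the 24 h difference with the block. Leaving out either 24 h array took the untreated ratio past the threshold (limma adjusted p = 0.045 without replicate 1 and 0.0449 without replicate 2).

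Serpinb1a inhibits the neutrophil serine proteases elastase, proteinase 3 and cathepsin G. In WT cells its log2 intensity was 12.59 and 12.24 untreated, then 12.51 and 12.12 after 1 h, 11.92 and 11.42 after 4 h and 10.69 and 10.54 after 24 h. In KO cells it was 13.67 and 13.71 untreated, then 13.04 and 13.13 after 1 h, 11.91 and 12.32 after 4 h and 10.83 and 10.91 after 24 h. KO exceeded WT in every channel pair but 1, the replicate 1 array at 4 h. The distance narrowed from untreated cells to 24 h, with log2 ratios of 1.27, 0.76, 0.44 and 0.26 (SE 0.21). The limma adjusted p of the untreated ratio was 0.168, and 0.00146 with the replicate block. At 1 h it was 0.664, and 0.0207 with the block, where 0.574% of all genes and transcripts were called.

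LPS lowered Serpinb1a in both genotypes. The WT log2 changes were -0.74 at 4 h and -1.80 at 24 h (SE 0.19, limma adjusted p = 0.00715 and 5.68e-06). In KO cells the changes were -1.57 and -2.82 (limma adjusted p = 1.42e-05 and 8.54e-08), which is 7.04-fold at 24 h against 3.49-fold in WT cells. The difference between the genotypes at 24 h, -1.01 ± 0.30 (SE), had a limma adjusted p of 1.00, and of 0.0382 with the replicate block. At 1 h the WT change was -0.10 and the KO change -0.61 (limma adjusted p = 0.892 and 0.0825, the latter 0.00353 with the block). The WT fall at 4 h had an adjusted p of 0.104 without untreated replicate 1 and 0.059 without 4 h replicate 2. The mean levels of most marker lists, which were not tested as lists, were lower at 24 h as well. From untreated cells to 24 h, the mean log2 level of the 4 large peritoneal macrophage markers went from 11.69 to 12.06 down to 9.60 to 9.86 in WT, and from 11.98 to 12.08 down to 10.04 to 10.16 in KO. That of the 5 macrophage markers went from 15.44 to 15.65 down to 13.84 to 13.88 in WT and from 15.29 to 15.30 down to 13.43 to 13.44 in KO. The 5 mast cell markers went from 10.03 to 10.41 down to 7.99 to 8.82 in WT and from 10.25 to 10.68 down to 8.99 to 9.02 in KO. The T and NK cell markers went from 9.04 to 9.63 down to 8.51 to 8.83 in WT. In KO they went from 9.50 to 9.64 down to 8.72 to 8.94. The B cell markers went from 12.24 to 12.65 down to 11.91 to 11.96 in WT. In KO they went from 12.42 to 12.86 down to 12.12 to 12.18. Eosinophil markers were lower too. The lists of neutrophils, mesothelial cells and fibroblasts, and dendritic cells were higher at 24 h. The part of these cells in the Serpinb1a fall was not tested.

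The proteases that Serpinb1a inhibits were measured on the same arrays. Prtn3 (proteinase 3) fell with LPS and was above background in 9 of 16 channels. It was at least 3.17-fold lower at 24 h in WT cells and at least 3.89-fold lower in KO cells (limma adjusted p = 0.000821 and 0.000244). Elane (neutrophil elastase) fell by 0.87 in WT and 0.88 in KO cells at 24 h on the log2 scale (limma adjusted p = 6.50e-05 and 6.36e-05). Ctsg (cathepsin G) had log2 changes of -0.35 and -0.27 (limma adjusted p = 0.0613 and 0.168). Serpinb1c, a close copy in the same cluster, ran alongside Serpinb1a. Its ratio of KO to WT in untreated cells was 0.83 on the log2 scale, and it fell by 1.00 in WT and 1.68 in KO cells at 24 h (limma adjusted p = 0.000999 and 1.23e-05). The genes nearest to Serpinb1a in pattern were Dab2, C4b and Sptbn1, with r from 0.953 to 0.959 over the 16 channels. Such correlations describe channels that share arrays and time points. The 5 measured neutrophil markers differed by -0.04 on average between KO and WT untreated cells. Camp, the neutrophil marker above background in all 16 channels, had a log2 ratio of -0.15, and 3 of the other 4 were never above background. The part of neutrophils in the Serpinb1a difference was not tested.

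Averaged over the 4 time points, 2 of the 7 serpins were called in KO against WT, where 0.566% of all genes and transcripts tested were called, 0.244% as higher. Both were higher in KO, Serpinb1a by 0.68 ± 0.11 (SE, limma adjusted p = 0.0373, on 7 of 8 arrays) and Serpinb2 by 0.59 ± 0.08 (SE, limma adjusted p = 0.0268, on 6 of 8 arrays). The other 5 had mean log2 ratios from -0.27 (Serpinb6b) to 0.13 (Serping1). The mean hides the course of both genes, since the difference was largest in untreated cells. The fit takes the 8 arrays as independent. Differences between replicates 1 and 2 in this ratio recurred across time points, with r from 0.475 to 0.679 across genes. The SE and adjusted p of the mean can therefore understate the spread. Leaving out an array left 0 or 1 of the 2 calls. Serpinb1a passed only without 4 h replicate 1 (limma adjusted p = 0.0413) and Serpinb2 only without 1 h replicate 1 (limma adjusted p = 0.0398). Over the other omissions, the adjusted p reached 0.137 and 0.115. In untreated cells the log2 ratios of KO to WT of the macrophage markers were -0.87 for Lyz2, which carries the Cre, and 0.07, -0.23, 0.13 and -0.34 for Adgre1, Csf1r, Itgam and Mertk. Those of the large peritoneal macrophage markers Gata6, Timd4, Icam2 and Selp were 0.12, -0.50, 0.34 and 0.66. The markers of other cells differed on average by 0.19 for B cells, 0.24 for T and NK cells and 0.25 for mast cells. In the mean over the 4 time points the mast cell markers Cpa3, Cma1, Mrgprb1, Tpsb2 and Mcpt4 had log2 ratios of 0.60, 0.47, 0.42, 0.38 and 0.05. The T cell markers Cd3d, Cd3g and Cd3e had 0.60, 0.37 and 0.17, Nkg7 had -0.02, and the B cell markers Cd79a, Cd79b, Cd22 and Ms4a1 had 0.13, 0.15, 0.18 and 0.23. Of the macrophage markers Selp had 0.74, Icam2 0.34, Timd4 -0.29 and Csf1r -0.40. Their part in the serpin differences was not tested. At single time points none of the 7 serpins was called in KO against WT. In untreated and 1 h cells 0% of all genes and transcripts were called with limma (2135 and 2025 at an unadjusted p under 0.05, among them 2 and 1 of the 7 serpins), at 4 h 0.0135% and at 24 h 0.0244%. With the replicate block 1.06% of all were called in untreated cells, among them Serpinb1a and Serpinb2, and 0.566% at 4 h and 0.585% at 24 h, none of the 7 among them. With the block 5.99% were called in the mean, again among them these 2. The median ratio of the 7 serpins lay between -0.05 and 0.09 at every time point, and that of all genes and transcripts was near 0.

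**Figure D2:**
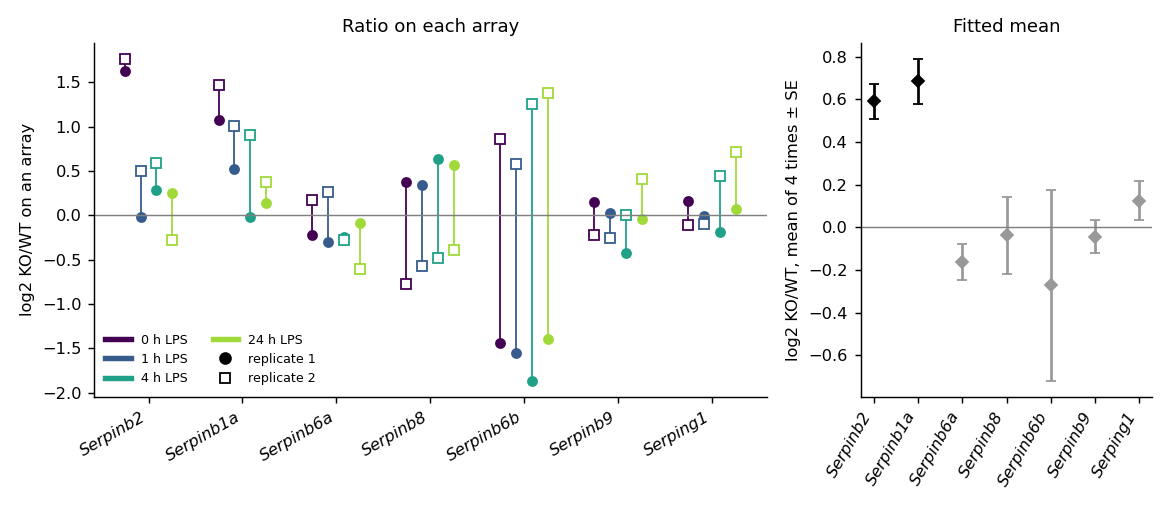
Left, log2 ratio of KO to WT on each of the 8 arrays (y axis) for the 7 serpins (x axis), coloured by hours of LPS, with filled circles for replicate 1 and open squares for replicate 2. Right, the fitted mean over the 4 time points with its SE (y axis), black where the adjusted p is under 0.05. Serpinb2 (0.59) and Serpinb1a (0.68) lie above 0, and the replicates of Serpinb6b and Serpinb8 lie on opposite sides of 0 at all 4 times.

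Serpinb6a, another inhibitor of cathepsin G, fell with LPS in both genotypes. In WT cells its log2 intensity was 15.42 and 15.10 untreated, then 15.06 and 14.57 after 1 h, 14.56 and 14.33 after 4 h and 14.05 and 14.50 after 24 h. The KO values were 15.20 and 15.27, 14.76 and 14.83, 14.32 and 14.05, and 13.97 and 13.89 at the same times. Untreated channels lay above all 4 h and 24 h channels within each genotype. The fall was 1.76-fold at 4 h and 1.98-fold at 24 h in WT cells, with log2 changes of -0.82 and -0.98 (SE 0.18, limma adjusted p = 0.00248 and 0.000736). In KO cells it was 2.07-fold and 2.47-fold (-1.05 and -1.30, limma adjusted p = 0.000323 and 7.12e-05). The mean level of the 5 macrophage markers was also lower at 24 h, at 13.84 to 13.88 in WT against 15.44 to 15.65 untreated and at 13.43 to 13.44 in KO against 15.29 to 15.30, and its part in the Serpinb6a fall was not tested. The genotypes' changes differed by -0.23 at 4 h and -0.32 at 24 h (SE 0.24, limma adjusted p = 1.00 each). The ratio of KO to WT ranged from -0.35 to -0.02 over the time points (limma adjusted p = 1.00 each). Serpinb6c, next to it on chromosome 13, fell as well, with log2 changes of -1.01 in WT and -1.27 in KO cells at 4 h (limma adjusted p = 0.000307 and 3.70e-05). The genes nearest to Serpinb6a in pattern were Pgap4, Retsat (retinol saturase) and Evi5, with r from 0.957 to 0.966.

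Serpinb8, whose human counterpart inhibits furin, rose late. In WT cells its log2 intensity was 13.48 and 13.79 untreated and 13.69 and 13.64 at 1 h, and then 15.24 and 15.27 at 4 h and 16.22 and 16.51 at 24 h. The KO values were 13.85 and 13.01, 14.03 and 13.07, 15.88 and 14.78, and 16.79 and 16.12. All 4 h channels lay above all untreated and 1 h channels, and all 24 h channels above all 4 h channels. WT cells gained 3.07-fold at 4 h and 6.65-fold at 24 h, with log2 changes of 1.62 and 2.73 (SE 0.38, limma adjusted p = 0.00350 and 6.23e-05). KO cells gained 3.73-fold and 8.14-fold (1.90 and 3.02, limma adjusted p = 0.00104 and 2.68e-05). The changes at 1 h were 0.03 and 0.12 (limma adjusted p = 0.984 and 0.943). From 4 h to 24 h the level rose by 1.11 in WT and 1.13 in KO cells (limma adjusted p = 0.0394 and 0.0364). The WT call for that step was lost without either 4 h or either 24 h array (adjusted p from 0.0695 to 0.180) and with the mean of all probes (0.0501), and the KO call without 4 h replicate 2 (0.373) or 24 h replicate 1 (0.287).

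The replicates of Serpinb8 stood apart in KO cells. KO replicate 1 was above KO replicate 2 by 0.89 on average, by at least 0.68 at each of the 4 times, whereas the WT replicates differed by -0.15. A gap this large between the KO replicates was seen in 0.162% of genes and transcripts. The ratio of KO to WT was therefore positive on all replicate 1 arrays (0.34 to 0.64) and negative on all replicate 2 arrays (-0.78 to -0.39), with a mean of -0.04 ± 0.18 (SE, limma adjusted p = 0.987). Gm6994, Plekhg3 and Arhgef15 were nearest to Serpinb8 in pattern, with r of 0.997 or 0.998, and shared the gap, with 0.73, 0.68 and 0.95. Furin itself changed by 0.31 in WT cells at 4 h (limma adjusted p = 0.0994) and by 1.19 in the RNA labelled KO (limma adjusted p = 6.78e-06). At 24 h, when Serpinb8 was highest, Furin stood at -0.40 and -0.32 against untreated cells (limma adjusted p = 0.0372 for WT and 0.0989 for KO).

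Serpinb6b, an inhibitor of granzyme A, divided the WT replicates. On the log2 scale WT replicate 1 measured 9.57 untreated, then 9.69, 10.50 and 9.59 after 1, 4 and 24 h. WT replicate 2 measured 7.60, 7.59, 8.0 and 7.47 at the same times. The KO channels lay between them, with 8.14, 8.14, 8.64 and 8.20 in replicate 1 and 8.46, 8.17, 9.26 and 8.85 in replicate 2. The WT gap was 2.18 on average, or 4.52-fold, and 0.0812% of genes and transcripts had one as large. Within every one of the 4 replicate series the 4 h sample was the highest. The mean log2 change at 4 h was 0.67 in WT and 0.65 in KO cells, with an SE of 0.90 and limma adjusted p-values of 0.663 and 0.666. Under other ways of processing this change ranged from 0.27 to 0.88 in WT and from 0.17 to 0.87 in KO cells. With the replicate block, limma gave adjusted p-values of 0.00313 and 0.00362. The step from 1 h to 4 h was 0.61 in WT and 0.80 in KO cells (limma adjusted p = 0.00666 and 0.000939 with the block). Its fall from 4 h to 24 h was -0.72 and -0.42 with the block (limma adjusted p = 0.00212 and 0.0482). With loess only, and no block, the KO change for this step was 0.07. Without the block, leaving out 4 h replicate 1 turned the WT change at 4 h against untreated to -0.58. Leaving out untreated replicate 2 turned it to -0.32.

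Aebp1, Cyp11a1, which starts steroid hormone synthesis, and Yap1 were nearest to Serpinb6b in pattern, with r from 0.949 to 0.960. All 3 had the same division of WT replicates, with log2 gaps of 3.06 for Aebp1, 3.11 for Cyp11a1 and at least 1.59 for Yap1, which was not well above background in any channel of WT replicate 2. Of 5 genes of steroid-producing cells, a list added after the data were seen, Cyp11a1 had this gap of 3.11 and Hsd3b1, also not well above background in WT replicate 2, one of at least 3.75. The gaps of Nr5a1, Cyp17a1 and Star were 0.48, 0.10 and -0.04. The mean level of the 5 genes was 8.82 to 9.68 in WT replicate 1, 7.59 to 8.10 in WT replicate 2, 7.87 to 8.39 in KO replicate 1 and 8.05 to 8.87 in KO replicate 2. The markers of T and NK cells, which make granzyme A, differed between WT replicates 1 and 2 by -0.50 on average, those of mast cells by 0.39 and those of mesothelial cells and fibroblasts by -0.04. The part of other cells in the Serpinb6b signal was not tested.

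**Figure D3:**
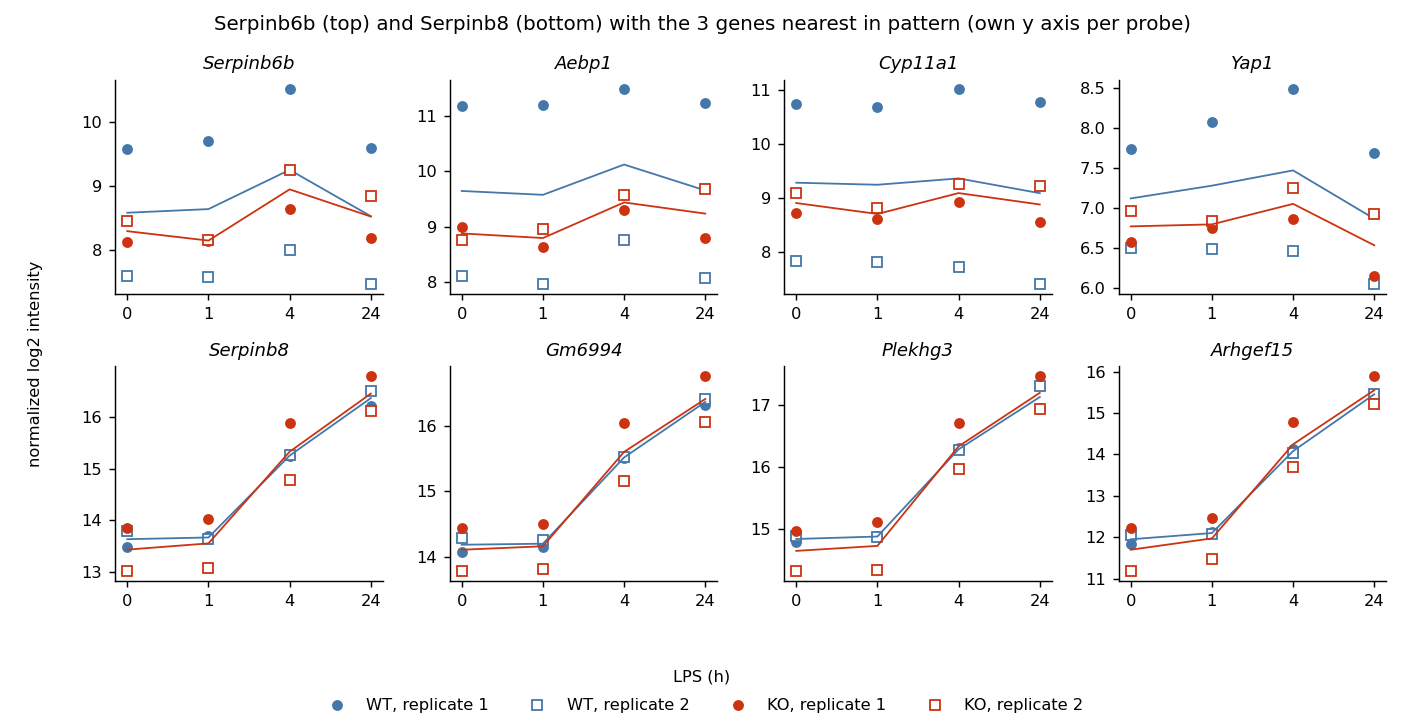
Normalized log2 intensity (y axis, separate for each probe) against hours of LPS (x axis) for Serpinb6b and Serpinb8 and, beside each, the 3 genes nearest in pattern, with WT in blue, KO in red, filled circles for replicate 1, open squares for replicate 2 and lines through the mean. The top row divides the WT replicates, by 2.18 on average for Serpinb6b, and the bottom row divides the KO replicates, by 0.89 for Serpinb8.

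Serpinb9, the inhibitor of granzyme B, was called in no comparison. In WT cells its log2 intensity was 8.0 and 8.23 untreated, then 7.90 and 8.16 after 1 h, 8.57 and 8.11 after 4 h and 8.09 and 7.86 after 24 h. The KO values were 8.14 and 8.01, 7.93 and 7.90, 8.15 and 8.12, and 8.05 and 8.26. The genotypes overlapped at all 4 times. The ratio of KO to WT ranged from -0.21 to 0.18 (SE 0.16), and the changes with LPS against untreated cells from -0.16 to 0.23 (SE 0.15). Its target Gzmb rose, being at least 1.44-fold higher at 4 h than untreated in WT and at least 2.02-fold higher in KO cells (limma adjusted p = 0.00263 and 6.16e-05). Gzma, the target of Serpinb6b, was not well above background in untreated WT cells and was at least 3.80-fold higher at 4 h (limma adjusted p = 2.10e-07). In KO cells, where 1 of 2 untreated channels was above background, Gzma rose by 1.87 on the log2 scale (limma adjusted p = 2.83e-07).

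Serping1 encodes the C1 inhibitor, which restrains the complement proteases C1r and C1s, the MASPs, plasma kallikrein and factor XII. Its signal was near background. In WT cells the log2 intensity was 6.51 and 6.65 untreated, then 6.61 and 6.67 after 1 h, 7.63 and 7.23 after 4 h and 7.24 and 6.75 after 24 h. The KO values were 6.67 and 6.54, 6.61 and 6.57, 7.44 and 7.67, and 7.31 and 7.46. It was well above background in all 4 h and 24 h channels, in the untreated replicate 1 of both genotypes, in WT replicate 2 at 1 h, and in no KO channel at 1 h. It rose by 0.85 in WT and 0.95 in KO cells at 4 h on the log2 scale (SE 0.17, limma adjusted p = 0.000985 and 0.000383), and KO cells had at least 1.94-fold more at 4 h than at 1 h (limma adjusted p = 0.000398). At 24 h the change was 0.78 in KO cells (limma adjusted p = 0.00250) and 0.42 in WT cells (limma adjusted p = 0.0825). The WT step from 4 h to 24 h was -0.43 (limma adjusted p = 0.0702, and 0.043 with the replicate block). A second Serping1 probe was above background in no untreated channel, and at 4 h in 1 of 2 WT and 2 of 2 KO channels. Lipg, 4933412E12Rik and Tnfsf10, which encodes the death ligand TRAIL, were nearest in pattern, with r from 0.963 to 0.972.

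Of the proteases that Serping1 restrains, C1ra had log2 changes at 24 h of 0.35 in WT (limma adjusted p = 0.0527) and 0.57 in KO cells (limma adjusted p = 0.00343). C1s1 had 0.60 and 0.64 (limma adjusted p = 0.790 and 0.780). Klkb1, plasma kallikrein, rose at 1 h by 0.73 in WT and 0.47 in KO cells (limma adjusted p = 0.000293 and 0.0103). F12, Masp1 and Masp2 were above background in no channel. Nor was F2, a further protease that was looked up and is not among those named above for Serping1.

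By time, 5 of the 7 serpins were called in at least 1 comparison with LPS in the fit without the replicate block, and Serpinb6b and Serpinb9 in none. At 1 h, 1 of 7 was called in WT and 1 in KO cells, Serpinb2 in both, where 8.5% and 7.44% of all genes and transcripts were called. With the replicate block Serpinb1a was called as well in KO cells, 2 of 7 against 11.8% of all. At 4 h, 5 of 7 were called in each genotype against 34.7% and 35.9% of all. Serpinb2, Serpinb8 and Serping1 were higher, and Serpinb1a and Serpinb6a lower. With the block Serpinb6b was added in each genotype, 6 of 7 against 39.2% of all in WT and 40.4% in KO. At 24 h, 4 of 7 were called in WT against 30.4% of all and 5 of 7 in KO against 28.6% of all, with Serping1 called in KO. The genotypes' Serping1 changes at 24 h differed by 0.36 ± 0.26 (SE, limma adjusted p = 1.00), and the WT count was 5 with no background correction and with a normexp offset of 10. The median log2 change of the 7 at 4 h was 0.67 in WT and 0.65 in KO cells, where that of all genes and transcripts was near 0. This middle value is that of Serpinb6b, which was not called and stood at -0.58 in WT without 4 h replicate 1. Between 1 h and 4 h, 3 of 7 were called in WT (29.6% of all) and 4 in KO (31.8%), and with the block, which added Serpinb6b, 4 (34.2%) and 5 (36.5%). Between 4 h and 24 h, 2 of 7 were called in WT (29.7%) and 3 in KO (30.7%). With the block 4 of 7 were called in WT for this step (34.8%), Serpinb6b and Serping1 being added, and 4 of 7 in KO (35.7%), Serpinb6b being added. The untreated samples are shared by the comparisons against them. The arrays of untreated and 1 h cells lay in one row of the slide and those of 4 h and 24 h cells in the other, so that row and these times cannot be told apart.

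**Figure D4:**
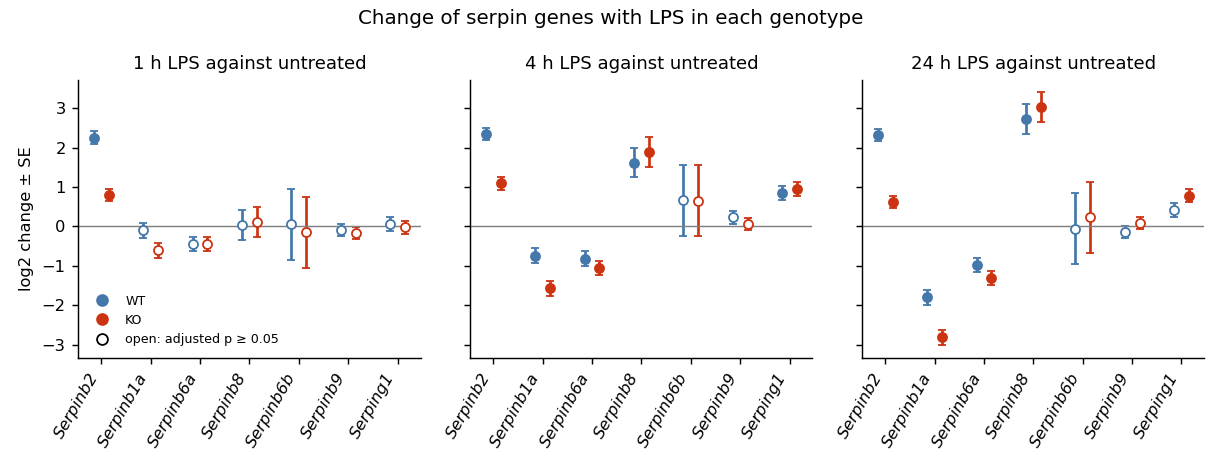
Fitted log2 change with its SE (y axis) of the 7 serpins (x axis) after 1, 4 and 24 h of LPS against untreated cells, WT in blue and KO in red, filled where the adjusted p is under 0.05. Serpinb2 is the filled member at 1 h in both genotypes, and at 24 h Serpinb8 has the largest rise (2.73 in WT, 3.02 in KO) and Serpinb1a the largest fall (-1.80 in WT, -2.82 in KO).

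The other 53 serpin genes on the array were all tested, and 21 of them were above background in at least 8 of 16 channels, 26 in none. None was called in KO against WT at any time point or in the mean without the replicate block. With it, 7 of the 53 were called in the mean, where 5.99% of all genes and transcripts were. The log2 ratio was above 0 on 7 of 8 arrays for Serpinb1c, on 6 for Serpina3f and Serpina3i and on 5 for Serpinb10. Serpinb7, with a mean ratio of 0.18, and Serpinb12, with -0.17, were above background in only 3 and 5 of 16 channels. The replicates of Serpinh1, a collagen chaperone that inhibits no protease, went opposite ways. Its log2 ratio of KO to WT was -2.66 to -2.02 on the replicate 1 arrays and 1.03 to 1.29 on the replicate 2 arrays, and its mean had a limma adjusted p of 0.860 without the block. WT replicate 1 stood apart as it did for Serpinb6b, at 9.16 on average against 6.74 in WT replicate 2, with KO at 6.77 and 7.90. At single times the block called Serpinb1c in untreated cells, with a log2 ratio of 0.83 (limma adjusted p = 0.00352). It called Serpinh1 after 1, 4 and 24 h (limma adjusted p = 0.0207, 0.0101 and 0.0366), each time from 2 arrays of opposite sign, so that no direction is given. At 24 h it also called Serpina3f and Serpina3i, with log2 ratios of 1.44 and 0.86 (limma adjusted p = 0.00673 and 0.00899). These genes are named because the block called them, after their values were seen. In WT cells 8 and 11 of the 53 were called at 4 and 24 h of LPS, 6 of the 8 and 7 of the 11 as higher, where 34.7% and 30.4% of all genes and transcripts were called. In KO cells 11 were called at each of these times, 6 of them as higher, against 35.9% and 28.6% of all.

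Serpinb10, which lies between Serpinb2 and Serpinb8, went the other way from both, with log2 changes of -2.25 at 4 h and -3.25 at 24 h in WT and -2.52 and -3.10 in KO cells (limma adjusted p from 4.71e-06 to 0.000101). Serpina3f rose by 3.35 in WT and 3.72 in KO cells at 4 h (limma adjusted p = 3.04e-08 and 1.18e-08). Serpina3i was at least 3.29-fold and at least 4.07-fold higher at 4 h. Serpina1a rose by 1.94 and 2.03 at 24 h (limma adjusted p = 6.24e-08 and 4.19e-08).

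The transcripts of the proteases that Serpinb2 inhibits, and of the urokinase receptor, were called with LPS as well. Plaur, the urokinase receptor, rose by 1.23, 2.35 and 1.34 on the log2 scale at 1, 4 and 24 h in WT cells (limma adjusted p = 7.96e-05, 1.91e-08 and 6.84e-06). In KO cells it rose by 1.09, 2.32 and 0.44 (limma adjusted p = 0.000302, 2.17e-08 and 0.0336). Plat was not well above background in untreated cells of either genotype. At 4 h it was at least 16.6-fold higher in WT and at least 17.5-fold higher in KO cells (limma adjusted p = 2.23e-08 and 2.14e-08), and at 24 h it was above background in 1 of 2 WT channels and in neither KO channel. Plau rose by 0.85 at 1 h in WT cells (limma adjusted p = 0.00633), and its log2 change in KO cells was 0.37 (limma adjusted p = 0.277). At 24 h its log2 change was -1.11 in WT and -1.95 in KO cells (limma adjusted p = 0.000180 and 1.06e-06). Its untreated level was 8.49 and 8.52 in WT and 9.28 and 9.34 in KO cells, a log2 ratio of 0.80 (limma adjusted p = 0.275, and 0.0444 with the replicate block).

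**Figure D5:**
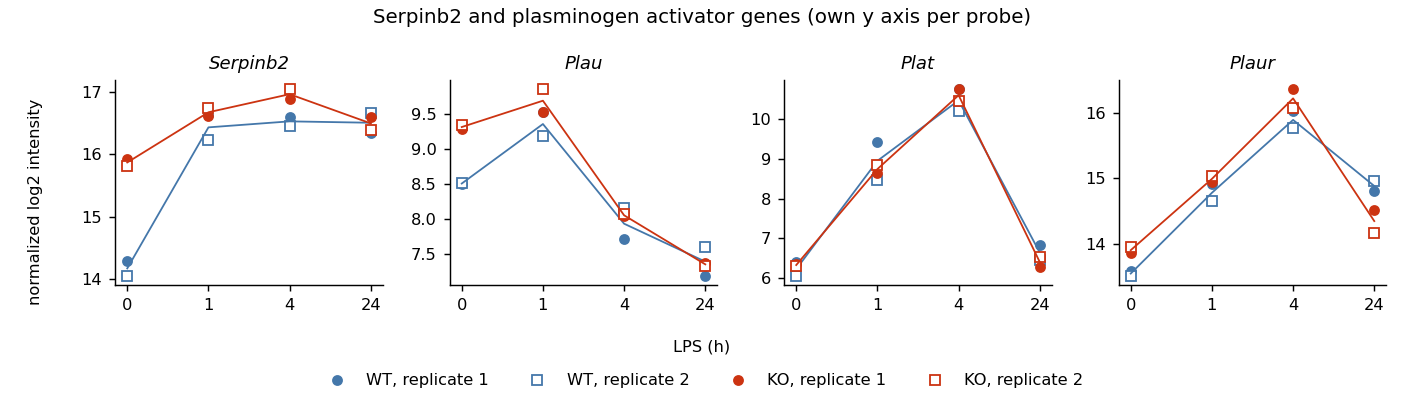
Normalized log2 intensity (y axis, separate for each probe) of Serpinb2, Plau, Plat and Plaur against hours of LPS (x axis), with WT in blue, KO in red, filled circles for replicate 1, open squares for replicate 2 and lines through the mean. Plat peaks at 4 h and is lower again at 24 h, while Serpinb2 in WT cells stays between 16.23 and 16.67 from 1 h on.

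Among the 16 proteases and receptors listed as targets of these serpins, 4, 7 and 7 were called at 1, 4 and 24 h in WT cells, where 8.5%, 34.7% and 30.4% of all genes and transcripts were called. In KO cells 3, 9 and 6 were called, against 7.44%, 35.9% and 28.6% of all. In KO against WT, 1 of the 16 was called without the replicate block, Furin in the mean over the time points, with a log2 ratio of -0.44 ± 0.06 (SE, limma adjusted p = 0.0220). With the block, where 5.99% of all genes and transcripts were called in the mean, so were Furin, Gzma and C1s1 (limma adjusted p = 0.00105, 0.00766 and 0.00738). The measured ratio of Gzma was above 0 on 8 of 8 arrays, but its WT signal was not well above background in untreated and 1 h cells. For C1s1 the measured ratio was below 0 on all replicate 1 arrays, where only 1 of 4 KO channels was above background, and 0.47 to 1.61 on the replicate 2 arrays, with WT replicate 1 apart at 9.27 against 6.88 in WT replicate 2, and the limma adjusted p of its mean was 0.831 without the block. At single times the block called Furin in untreated, 1 h and 24 h cells, with log2 ratios of -0.72, -0.56 and -0.64 (limma adjusted p = 0.0123, 0.0477 and 0.0227). It also called Plau in untreated cells, with a log2 ratio of 0.80 (limma adjusted p = 0.0444), and Klkb1 at 1 h, with -0.50 (limma adjusted p = 0.0353). Across the 16 channels, Serpinb8 and Serpinb1a ran opposite to each other (r = -0.89), and so did Serpinb8 and Serpinb6a (r = -0.82), while Serpinb1a and Serpinb6a ran together (r = 0.76). These are descriptions of channels that share 8 arrays and 4 time points. The genes nearest to Serpinb2 were Phlda1, Fosl1, a Fos family member, and the chemokine Ccl2, with r from 0.896 to 0.904. Their untreated log2 ratios of KO to WT were 1.29, 0.69 and 1.93.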

How the data were processed

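RNA of KO and WT peritoneal macrophages was hybridised to 8 two-colour Agilent mouse arrays, 2 per time point, with dyes swapped between replicates. The deposited spot intensities are median pixel values of each dye and of the local background, written by Agilent Feature Extraction 10.7.3 (annotation build mm9 per the file headers). The deposited matrix of log2 ratios of Cy5 to Cy3 was made by the authors with loess and quantile normalization in limma, and served as an alternative only. The scanner software's own log ratios and their p-values were not used.

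Median signals were corrected with normexp (offset 50), normalized by loess within arrays and by quantile between arrays, in limma 3.58.1 and R 4.3.3. The mean signal that had been planned is not used here, and the median was taken. Spots of a probe were averaged, a gene was represented by its brightest probe, and genes with a mean log2 intensity under 6 were left out. KO against WT was tested on the log2 ratio of each array in one limma fit of all 8 arrays (36947 genes and transcripts, 4 residual degrees of freedom). Changes with LPS were tested in limma's separate-channel fit of 16 channels (36927 genes and transcripts, within-spot correlation 0.116). P-values were adjusted by Benjamini-Hochberg over all genes and transcripts, with a threshold of 0.05. The scripts were tested on simulated data. At least N-fold means the mean of the brighter group over the dimmer group's detection bound, as the lower of the values after quantile and after Aquantile normalization between arrays.

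Replicate number and dye orientation coincide. Differences between replicates 1 and 2 in the ratio of KO to WT correlated across genes with r from 0.475 to 0.679 over 6 pairs of time points, so replicate number was also fitted as a block. Times come from the sample titles, since the growth protocol names 4 h for every sample.

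The 7 serpins, the lists (other serpins, target proteases and receptors, cell type markers) and the motifs were chosen with earlier results of these data known. Other serpins were named where called in at least 1 comparison, largest change first, plus Serpinb10, and 1 gene of that list is not reported here. The 3 genes nearest in pattern were those with the highest Pearson r over 16 channels among 4956 genes with an SD of at least 0.5.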

Additional observations from a re-analysis of the deposited data

Results flagged for a closer look

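On the brighter Serping1 probe the ratio of KO to WT fell on opposite sides of 0 at 2 time points. Its log2 ratio was 0.39 at 24 h, above 0 on both arrays, and -0.05 at 1 h, below 0 on both arrays, a difference of 0.45. This difference was not tested, and the SE of each ratio was 0.18 with a limma adjusted p of 1.00. On the second probe the mean log2 ratios were 0.24 at 1 h, where no channel was well above background, and 0.28 at 24 h, on the same side of 0. At 1 h the KO signal was not well above background on either array.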

How the results depend on the processing

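For the mean over the 4 time points in KO against WT, 2 of the 7 serpins were called. That count was 0 with a normexp offset of 10, and 1 each with loess only, with loess then Aquantile, with the mean of all probes and with the deposited matrix. For KO after 1 h of LPS the count of 1 became 2 with the scanner software's processed signals, with the filter at a mean log2 of 8 and with the replicate block. For the WT step from 4 h to 24 h the count of 2 became 1 with the mean of all probes and 4 with the replicate block, and 3 with a normexp offset of 10. For WT after 24 h the count of 4 became 5 with no background correction and with a normexp offset of 10. The replicate block also raised the counts of 0 to 2 for KO against WT in untreated cells, 1 at 1 h and 2 for the difference in response at 24 h. With the methods' t-test after Benjamini-Hochberg the counts for WT were 0 in all 5 comparisons of times, and for KO 0 in 4 of them and 1 for 24 h against untreated. Leaving out an array gave 0 to 1 for KO against WT in untreated cells, 0 to 1 for the mean, 0 to 2 for KO after 1 h, 1 to 3 for the step from 4 h to 24 h in WT and in KO.

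Serpinb6b, KO, 24 h LPS against 4 h LPS turned to 0.070 with loess only. Leaving out an array moved Serpinb6b in WT from -0.58 to 1.92 at 4 h against untreated, from -0.64 to 1.86 at 4 h against 1 h and from -1.97 to 0.53 at 24 h against 4 h. Negative values at 4 h came without 4 h replicate 1 (-0.58, -0.64), untreated replicate 2 (-0.32) or 1 h replicate 2 (-0.44), and positive ones at 24 h without 4 h replicate 1 (0.53) or 24 h replicate 2 (0.34). The cause was not tested. For KO against WT, 2 arrays per time point limit what can be called. Over the 48 single-gene results past the threshold in the fit or with the replicate block, 903 values under the alternatives comprised 802 that kept direction and side of the threshold, 72 that lost the call, 22 that gained it and 7 that changed sign. The replicate block changed no call of a member beyond those given with it in the report.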
